A study of Homo sapiens with 6 samples.

Results

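A set of 10 genes that marks epithelial or mesenchymal cell identity was followed under 3 media in the lung cancer cell line 95D, of human origin. They were taken by symbol from the deposited tables, where all 10 were found among 59609 gene names: the epithelial genes CDH1, EPCAM, KRT8, KRT18 and KRT19, and the mesenchymal genes VIM, CDH2, ZEB1, ZEB2 and SNAI2. RNA was sequenced from wild-type 95D cells after 48 h in complete control DMEM (2 libraries), in glucose-free DMEM (2 libraries) or in glutamine-free DMEM (1 library used of 2 labelled). Deprivation began 24 h after seeding, and both deprived media held 10% dialyzed serum. The control protocol names 10% fetal bovine serum and no dialysis, so serum type and nutrient removal cannot be told apart in comparisons with control. All samples come from 1 cell line, and the labels do not say whether replicates were separate cultures. The p-values below therefore speak for the spread among these libraries, which may be technical.

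Epithelial cells hold together through E-cadherin (CDH1) junctions and EPCAM, and carry a keratin skeleton in which a type II keratin such as keratin 8 pairs with a type I keratin such as keratin 18 or 19. Mesenchymal cells use the intermediate filament protein vimentin (VIM) and N-cadherin (CDH2) in their place. The zinc finger factors ZEB1, ZEB2 and SNAI2 (Slug) bind E-box letters in DNA and repress epithelial genes, and carcinoma cells can move between these states in epithelial-mesenchymal transition.

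Starts were taken from the RefSeq promoter table (GRCh38.p14) for 5 of the 10 genes: VIM, CDH2, ZEB1, ZEB2 and KRT8. CDH1, EPCAM, KRT18 and KRT19 were not found in it. SNAI2 was left out of this step, so its promoter was not searched. The 3 windows shown are of genes whose levels the results turn on. These are VIM and ZEB1, which rose without glucose, and KRT8, the type II keratin among the 10. Each is the 250 bases before a start, 5′ to 3′ on the gene's strand, in lower case, with the E-box letters CACCTG in capitals wherever they stood on one of both strands. Read from the opposite strand, this motif is CAGGTG. The VIM window lies at chr10:17227991-17228240 on the plus strand. The ZEB1 window lies at chr10:31318167-31318416 on the plus strand, before the first of its 7 listed starts. The KRT8 window lies at chr12:52926470-52926719 on the minus strand. Its start, the 1 listed for KRT8, is inside the annotated span of the gene (52897187 to 52949954) and not at its 5′ end.
VIM: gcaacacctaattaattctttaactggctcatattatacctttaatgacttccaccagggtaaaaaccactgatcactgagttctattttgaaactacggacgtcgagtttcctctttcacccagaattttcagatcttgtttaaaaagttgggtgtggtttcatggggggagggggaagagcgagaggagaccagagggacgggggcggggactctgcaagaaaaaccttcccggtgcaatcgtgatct
ZEB1: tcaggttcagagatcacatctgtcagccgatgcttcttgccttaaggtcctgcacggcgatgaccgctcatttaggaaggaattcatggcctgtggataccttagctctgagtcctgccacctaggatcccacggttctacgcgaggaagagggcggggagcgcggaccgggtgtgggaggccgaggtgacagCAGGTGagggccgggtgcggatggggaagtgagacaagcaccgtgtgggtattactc
KRT8: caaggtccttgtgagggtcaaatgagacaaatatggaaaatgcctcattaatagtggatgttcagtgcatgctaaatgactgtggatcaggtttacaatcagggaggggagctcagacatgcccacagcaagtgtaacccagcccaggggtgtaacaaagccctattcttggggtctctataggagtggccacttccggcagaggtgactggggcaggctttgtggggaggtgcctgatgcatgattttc
The ZEB1 window held 1 such E-box, beginning 57 bases before the start, and the VIM and KRT8 windows held 0. Of the 12 windows taken for the 5 genes, 2 held the letters, both of ZEB1. Among 35116 promoter windows of the same length, 17.5% did. The VIM window had 46% G and C and 8 CpG pairs, that of ZEB1 59.2% and 15, and that of KRT8 50.4% and 1, beside medians of 58% and 11 over all windows. A match of letters is a description and not a binding site.

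Levels are FPKM, fragments per kilobase of transcript normalised to sequencing depth, divided by a scaling factor per library (0.96 to 1.08). Depth inferred from the step size of low values was 34530000 to 48930000 reads per library. Differences are log2 fold changes on the log2(FPKM + 1) scale, ± SE, from limma fitted to the 16600 genes that reached 1 FPKM in any library. This scale understates changes of low genes. With 5 libraries in 3 groups the fit has 2 residual degrees of freedom, and the single library without glutamine is taken to vary as much as the replicated groups. The call rule, an adjusted p under 0.05, is a loose one here, as it took in 54.9% of genes without glucose (48.5% of these calls higher), 51.2% without glutamine (48.4% higher) and 44.7% in the direct comparison of both deprivations (50.5% higher). Scaling to the library total moved the median log2 fold change of all genes from 0.03 to 0.11 without glucose, from 0.05 to 0.30 without glutamine and from 0.01 to 0.19 between the deprivations, and the share of calls that were higher to 67.9%, 91.1% and 85.6%. Upper-quartile scaling gave 60%, 68.3% and 62.5%, and unscaled values gave 67.4% without glutamine and 68.1% between the deprivations.

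In control medium 95D cells carried the mesenchymal genes and few of the epithelial ones. VIM stood highest of the 10, at 77.7 and 76.2 FPKM in the control libraries, above 97.4% of the genes tested. KRT18 followed at 21.7 and 20.9 FPKM. SNAI2 (8.92 and 9.4 FPKM) and CDH2 (8.7 and 8.87 FPKM) stood close together, as did ZEB1 (4.81 and 4.86 FPKM) and KRT8 (4.6 and 4.15 FPKM). ZEB2 stood lower, at 1.61 and 1.56 FPKM. No neighbours in this order had overlapping control libraries, although 2 libraries give little measure of the spread. The order is one of FPKM and depends on the length taken for each gene. All 5 mesenchymal genes and 2 of the 5 epithelial genes thus reached 1 FPKM in both controls.

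The other epithelial genes were at the edge of detection. CDH1 was at 0.168 and 0.193 FPKM in control, which corresponds to about 35.4 and 56.7 inferred reads, and EPCAM at 0.0845 and 0.138 FPKM, about 7.25 and 16.6 inferred reads. KRT19 was listed at 0 in all 5 libraries. Within the control libraries the CDH2 level was 51.7 and 46 times that of CDH1, and VIM was 3.58 and 3.64 times KRT18 and 16.9 and 18.4 times KRT8. KRT18 was 4.72 and 5.05 times KRT8, its partner in the filament. With the listed pseudogenes of both added, a choice made after the data were seen, it was 2.4 and 2.52 times KRT8. Ratios between genes depend on the length taken for each, and exons span 3218 bases in KRT18 and 6881 in KRT8. Inferred reads in the control libraries were 2380 and 3203 for KRT18 and 1079 and 1356 for KRT8.

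**Figure D1:**
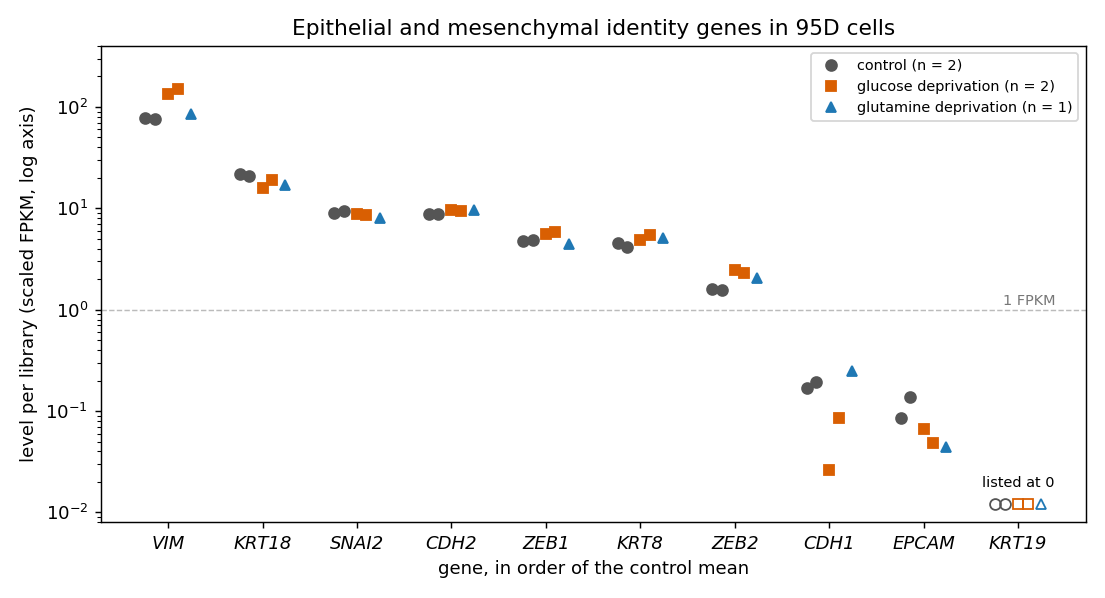
Level of each of the 10 genes in each library (scaled FPKM, log axis), with control as grey circles, glucose deprivation as orange squares and glutamine deprivation as a blue triangle; open symbols mark values listed at 0 and stand at the foot of the plot. VIM lies between 76.2 and 150 FPKM, and CDH1, EPCAM and KRT19 lie below 1 FPKM in all 5 libraries.

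Genes that act beside these 10 were in part present in control. Of 32 other epithelial genes, 13 reached 1 FPKM in both controls, led by the catenin CTNNB1 (56.2 ± 1.23 FPKM, SD, n = 2) and the desmosomal linker DSP (34.2 ± 1.25 FPKM), a protein that anchors keratin filaments to junctions. The tight junction gene CLDN3 was listed at 0 in all libraries. Among the epithelial regulators chosen here after their values were seen, ESRP1, a splicing factor, and GRHL2, a transcription factor, did not exceed 0.0361 and 0.0221 FPKM in any library. Of 30 other mesenchymal genes, 15 reached 1 FPKM in both controls, led by the actin-bundling gene FSCN1 (32.9 ± 2.79 FPKM) and ANXA6 (26.9 ± 1.67 FPKM), an annexin. Several common mesenchymal markers, also chosen after their values were seen, were low: the adhesion receptor CD44 at 0.0441 FPKM, the receptor kinase AXL at 0.0838 FPKM and fibronectin (FN1) at 1.46 FPKM on the mean of both controls. Of 12 other keratin genes only KRT10 passed the filter.

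Markers of lung lineages were mostly low. The lung transcription factor gene NKX2-1 was at 1.08 ± 0.0169 FPKM in control (SD, n = 2), and the surfactant genes SFTPB and SFTPA1 were listed at 0 in all libraries. In the squamous list SOX2 reached 4.08 ± 0.11 FPKM, while KRT5 and KRT6A were listed at 0 throughout. SOX2 fell to 1.88 ± 0.119 FPKM without glucose (SD, n = 2; -0.82 log2, limma adjusted p = 9.33e-05) and read 2.56 FPKM without glutamine (-0.51 log2, limma adjusted p = 0.00311, not called under scaling to the total). The neuroendocrine list summed to 6.6 and 6 FPKM in control, 9.12 and 9.88 FPKM without glucose and 9.53 FPKM without glutamine. Of its 6 genes 2 reached 1 FPKM in both controls, NCAM1 (3.26 ± 0.0536 FPKM) and SYP (2.26 ± 0.362 FPKM). Without glucose both were called higher (0.35 and 0.66 log2), SYP not without the filter. Without glutamine they read 5.52 and 3.17 FPKM (0.61 and 0.36 log2). The fibroblast list summed to 1.84 and 1.5 FPKM in control, 0.828 and 0.871 FPKM without glucose and 3.1 FPKM without glutamine, with 0 of its 7 genes at 1 FPKM in both controls. COL1A1, the 1 gene of that list tested, read 0.608 ± 0.0475 FPKM in control, 0.386 ± 0.00304 FPKM without glucose and 1.83 FPKM without glutamine (0.81 log2). The endothelial, immune, airway and melanocytic lists did not exceed 0.0456, 0.886, 0.0703 and 2.56 FPKM in any library. The part of these cell types in the results below was not tested.

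Removal of glucose went with higher VIM, ZEB2 and ZEB1 and with no called change of CDH2 or SNAI2. VIM read 77.7 and 76.2 FPKM in control and 135 and 150 FPKM without glucose, and both deprived libraries lay far above both controls. The rise was 1.86-fold in mean level (0.88 ± 0.06 log2, limma adjusted p = 1.43e-05). ZEB2 went from 1.61 and 1.56 FPKM to 2.48 and 2.29 FPKM, again with no overlap (0.39 ± 0.05 log2, limma adjusted p = 0.00031). Its relative ZEB1 rose less, from 4.81 and 4.86 FPKM to 5.62 and 5.9 FPKM (0.21 ± 0.05 log2, limma adjusted p = 0.00588). In bulk RNA a larger share of cells with a transcript and more transcript per cell cannot be told apart.

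For the mesenchymal members that did not pass the test, the values lay close to control. CDH2 read 8.7 and 8.87 FPKM in control and 9.7 and 9.34 FPKM without glucose (0.10 ± 0.05 log2, limma adjusted p = 0.0909). SNAI2 read 8.92 and 9.4 FPKM in control and 8.87 and 8.5 FPKM without glucose (-0.07 ± 0.05 log2, limma adjusted p = 0.308), a sign that turned under scaling to the total (0.03) and upper-quartile scaling (0.01). The ratio of ZEB1 to ZEB2 within a library, which no scaling between libraries affects, stood at 3 and 3.12 in control and 2.26 and 2.57 without glucose. Its size depends on gene length, with exons of 8650 bases in ZEB1 and 25058 in ZEB2. Inferred reads in control were closer, at 1416 and 2000 for ZEB1 and 1370 and 1856 for ZEB2.

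Both keratins that could be tested were called without glucose, in opposite directions. KRT8 read 4.6 and 4.15 FPKM in control and 4.86 and 5.51 FPKM without glucose (0.20 ± 0.07 log2, limma adjusted p = 0.0369). KRT18 read 21.7 and 20.9 FPKM in control and 16 and 19.1 FPKM without glucose (-0.27 ± 0.08 log2, limma adjusted p = 0.017). Neither call held without the filter, under scaling to the total or with the variance trend over FPKM. That of KRT18 was also lost with upper-quartile scaling. Each keratin call was lost without either control library, as were that of KRT8 without glucose deprivation replicate 2 and that of KRT18 without replicate 1 (adjusted p between 0.0579 and 0.269 in these settings).

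The keratin values differ with whether pseudogenes are counted. KRT8 and KRT18 have many near-identical processed copies in the genome, and the tables listed 51 pseudogenes of KRT8, 19 of them above 0 in some library, and 67 of KRT18, 23 of them above 0. Their summed level was 6.36 and 5.89 FPKM for KRT8 in control, 10.1 and 10.6 FPKM without glucose and 12 FPKM without glutamine. For KRT18 the sums were 4.6 and 4.4 FPKM, 8.77 and 7.2 FPKM, and 8.63 FPKM. Pseudogenes were thus higher in every deprived library, also where KRT18 itself was lower.

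With pseudogenes added, an alternative chosen after the data were seen, KRT18 summed to 26.3 and 25.3 FPKM in control, 24.7 and 26.3 FPKM without glucose and 25.5 FPKM without glutamine, and the groups overlapped. Its log2 fold change was then -0.02 ± 0.05 without glucose (limma adjusted p = 0.795) and -0.02 ± 0.06 without glutamine (limma adjusted p = 0.839). KRT8 with its pseudogenes summed to 11 and 10 FPKM in control, 15 and 16.1 FPKM without glucose and 17.2 FPKM without glutamine, a larger difference than for the gene alone (0.52 ± 0.06 log2, limma adjusted p = 0.000134, and 0.66 ± 0.07 log2, limma adjusted p = 0.000137). The call on KRT18 therefore ended with this choice. The difference of KRT8 grew in both deprivations, although the gene alone had not been called without glutamine. FPKM is per length of each listed gene, so these sums do not count reads of a keratin and of its copies in equal measure. They are not the level that reads assigned back to the keratin would give, and the same holds for ratios with pseudogenes added. The spans of KRT8 and KRT18 also overlap on opposite strands of chromosome 12 (GRCh38, GENCODE release 29: KRT8 from 52897187 to 52949954, KRT18 from 52948871 to 52952901), and no strand setting was given.

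**Figure D2:**
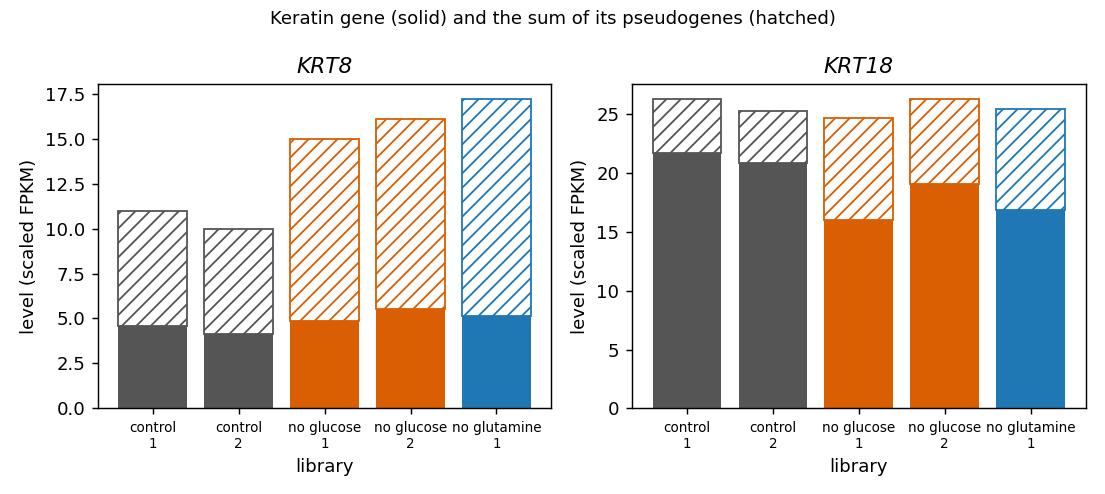
Level of KRT8 (left) and KRT18 (right) in each library (scaled FPKM, linear axes from 0), with the gene itself as a solid bar and the sum of its listed pseudogenes hatched on top. The solid bar of KRT18 is shorter in the 3 deprived libraries, while its whole bar stays between 24.7 and 26.3 FPKM in all 5.

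CDH1 and EPCAM did not pass the filter, so neither entered the main test. CDH1 read 0.168 and 0.193 FPKM in control, 0.0264 and 0.0859 FPKM without glucose and 0.25 FPKM without glutamine. These values rest on about 6.07 to 57.6 inferred reads. Without the filter its log2 fold change was -0.16 ± 0.05 without glucose (limma adjusted p = 0.149), 0.08 ± 0.06 without glutamine (limma adjusted p = 0.458) and 0.24 ± 0.06 between the deprivations (limma adjusted p = 0.102). EPCAM read 0.0845 and 0.138 FPKM in control, 0.0662 and 0.048 FPKM without glucose and 0.044 FPKM without glutamine, with adjusted p-values (limma, no filter) of 0.41, 0.361 and 0.886.

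In all, 5 of the 7 tested genes of the 10 passed the test without glucose, 4 higher and 1 lower, where the background was 54.9% of all genes, 26.6% higher and 28.3% lower. The median log2 fold change of the 7 was 0.20, beside 0.03 for all genes tested. For all 7 the glucose-deprived libraries did not overlap the controls, as was the case for 78.3% of genes tested. Leaving out control replicate 1 or control replicate 2 left 2 calls, those of VIM and ZEB2. VIM and ZEB2 were the members whose call and direction held in every alternative tried for this comparison; the highest adjusted p over them was 0.0171 for VIM and 0.0242 for ZEB2 (limma), and that of ZEB1 was 0.09, under scaling to the total.

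Removal of glutamine was measured in 1 library, in which ZEB2 was called higher and KRT18 lower. VIM read 85.2 FPKM against 77.7 and 76.2 FPKM in control (0.15 ± 0.07 log2, limma adjusted p = 0.113). It passed the test with unscaled values (0.31 log2, adjusted p = 0.00516) and with upper-quartile scaling (0.32 log2, adjusted p = 0.00663), settings in which the median of all genes also rose, to 0.17 and 0.18. It also passed without glucose deprivation replicate 1 (adjusted p = 0.0428) or replicate 2 (adjusted p = 0.0421). ZEB2 read 2.04 FPKM against 1.61 and 1.56 FPKM and passed (0.23 ± 0.06 log2, limma adjusted p = 0.0119), but not without control replicate 1 (0.0668) or control replicate 2 (0.0896), with the variance trend over FPKM (0.0922), or without the filter (0.065). ZEB1 read 4.42 FPKM, below both controls (-0.11 ± 0.06 log2, limma adjusted p = 0.159), with a sign that turned in all 3 other scalings.

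CDH2 read 9.72 FPKM without glutamine (0.13 ± 0.06 log2, limma adjusted p = 0.0858), SNAI2 8.09 FPKM (-0.16 ± 0.07 log2, limma adjusted p = 0.0739) and KRT8 5.15 FPKM (0.20 ± 0.08 log2, limma adjusted p = 0.0829). CDH2 and KRT8 passed in each of the 3 other scalings, with KRT8 at 0.33 to 0.46 log2 and CDH2 at 0.28 to 0.42 log2, and the sign of SNAI2 turned under scaling to the total (0.12). KRT18 read 16.9 FPKM and was called lower (-0.32 ± 0.09 log2, limma adjusted p = 0.0221), a call that ended with its pseudogenes added, as above, in each of the 3 other scalings and without either control library. Thus 2 of the 7 tested genes passed, 1 higher and 1 lower, where the background was 51.2% of all genes, 24.8% higher and 26.4% lower. The glutamine-deprived library lay outside the controls for all 7, as it did for 90.9% of genes tested. The count of members called moved with the setting. That count was 4, all higher, with unscaled values and with upper-quartile scaling, and 0 without control replicate 1 or 2 (limma), where 1 of 7 had an unadjusted p under 0.05 in each.

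The direct comparison, in which both media held dialyzed serum, asked whether the deprivations differed. VIM was lower without glutamine (85.2 FPKM) than without glucose (135 and 150 FPKM), by -0.74 ± 0.07 log2 (limma adjusted p = 0.000173). ZEB1 was lower as well, at 4.42 FPKM against 5.62 and 5.9 FPKM (-0.32 ± 0.06 log2, limma adjusted p = 0.00304). Under scaling to the total neither passed: VIM stood at -0.53 log2 (adjusted p = 0.0513) and ZEB1 at -0.15 log2 (adjusted p = 0.582).

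ZEB2 did not pass here (-0.16 ± 0.06 log2, limma adjusted p = 0.0644), except with a pseudocount of 0.1 (adjusted p = 0.0352) or without glucose deprivation replicate 2 (adjusted p = 0.0437). SNAI2 (-0.09 ± 0.07 log2), CDH2 (0.03 ± 0.06), KRT18 (-0.05 ± 0.09) and KRT8 (-0.0044 ± 0.08) had limma adjusted p-values from 0.296 to 0.973, and the sign of SNAI2, KRT18 and KRT8 turned in other scalings. Thus 2 of 7 passed (limma), both lower, against 44.7% of all genes, 22.6% higher and 22.1% lower, and 3 of 7 had an unadjusted p under 0.05. For 5 of the 7, all but KRT8 and KRT18, the deprived libraries did not overlap, as was the case for 86.5% of genes tested. Their median was -0.09, beside 0.01 for all genes.

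**Figure D3:**
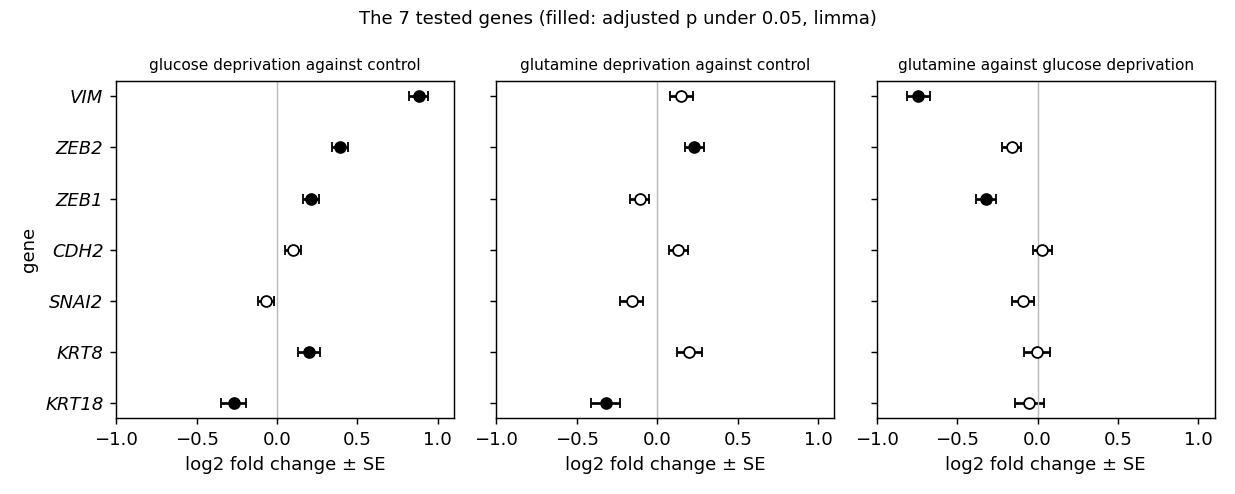
Log2 fold change on the log2(FPKM + 1) scale, with its SE, of the 7 tested genes in the 3 comparisons; filled points passed an adjusted p of 0.05 (limma). VIM lies at 0.88 without glucose and at -0.74 between the deprivations, while CDH2 and SNAI2 are open in all 3 panels.

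Ratios within a library show the balance of vimentin and keratin free of scaling. VIM was 3.58 and 3.64 times KRT18 in control, 8.47 and 7.86 times without glucose and 5.04 times without glutamine. With the pseudogenes counted into KRT18 these ratios were 2.95 and 3.01, 5.47 and 5.71, and 3.34. VIM was 16.9 and 18.4 times KRT8 in control, 27.8 and 27.3 times without glucose and 16.5 times without glutamine. With the pseudogenes counted into KRT8 these became 7.08 and 7.59, 9.02 and 9.35, and 4.95. All 4 ratios were higher in both glucose-deprived libraries than in either control. Without glutamine both ratios to KRT8 lay below the controls, and more so with pseudogenes counted. CDH2 was 368 and 109 times CDH1 without glucose and 39 times without glutamine, against 51.7 and 46 times in control; the few reads of CDH1 set the width of this range.

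Reads of overlapping antisense neighbours cannot be told apart from those of the genes without strand, so their values are uncertain. VIM-AS1 overlaps the start of VIM on chromosome 10 (GRCh38, GENCODE release 29: VIM from 17228259 to 17237593 on the plus strand, VIM-AS1 from 17214239 to 17229985 on the minus strand). It read 1.72 and 1.56 FPKM in control, 0.854 and 1.03 FPKM without glucose, where it was called lower (-0.44 ± 0.12 log2, limma adjusted p = 0.0123), and 1.42 FPKM without glutamine. ZEB1-AS1 (1.28 and 0.708 FPKM in control) was not called in any comparison, and ZEB2-AS1 did not exceed 0.0268 FPKM. ZEB1 lies on chromosome 10 from 31318495 to 31529814, ZEB2 on chromosome 2 from 144364364 to 144524583, CDH2 on chromosome 18 from 27950966 to 28177446, CDH1 on chromosome 16 from 68737225 to 68835548, EPCAM on chromosome 2 from 47345158 to 47387601 and KRT19 on chromosome 17 from 41523617 to 41528308.

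Other mesenchymal genes did not follow VIM without glucose. Of 17 tested, 2 rose and 9 fell, with a median log2 fold change of -0.23 (backgrounds 26.6% and 28.3%, median 0.03). FSCN1 went from 32.9 ± 2.79 to 20.7 ± 2.85 FPKM (SD, n = 2; -0.65 ± 0.09 log2, limma adjusted p = 0.000516), and the calcium-binding gene S100A4 (-0.60 log2) and the tropomyosin gene TPM1 (-0.49 log2) also fell, S100A4 not without control replicate 1 or glucose deprivation replicate 1. The rises were those of the membrane protein gene EMP3, from 2.52 ± 0.324 to 4.47 ± 0.564 FPKM (0.64 log2, limma adjusted p = 0.00164), and FN1 (0.19 log2, limma adjusted p = 0.0105), which was lost without either control. Without the filter the calls of FSCN1, S100A4 and EMP3 were lost too. That of FN1 was also lost under scaling to the total and with the variance trend over FPKM. The number that fell ranged from 5 to 9 over the alternatives, with at most 2 higher in each.

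Of 13 other epithelial genes tested without glucose, 4 rose and 2 fell (median 0.03), against 26.6% and 28.3% of all genes. JUP, plakoglobin of desmosomes and adherens junctions, went from 6.98 ± 0.32 to 13.8 ± 1.23 FPKM (SD, n = 2; 0.89 log2, limma adjusted p = 2.39e-05), DSP rose by 0.29 log2 (not under scaling to the total) and the tricellular junction gene LSR by 0.27 log2, the last not without either control or glucose deprivation replicate 2. CTNNB1, which encodes beta-catenin, fell from 56.2 ± 1.23 to 38 ± 0.596 FPKM (-0.55 log2, limma adjusted p = 3.1e-05), and the junctional adhesion gene F11R fell from 8.53 ± 0.274 to 4.91 ± 0.485 FPKM (-0.69 log2, limma adjusted p = 7.86e-05). Genes of both programmes thus moved in both directions.

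Without glutamine 3 of 17 other mesenchymal genes rose and 2 fell (median 0.09), and 4 of 13 epithelial genes rose and 1 fell (median 0.06), against 24.8% higher and 26.4% lower among all genes, whose median was 0.05. FN1 read 3.49 FPKM against 1.46 ± 0.0203 FPKM in control (SD, n = 2; 0.87 log2, limma adjusted p = 3.17e-05) and the matrix protease gene MMP2 1.63 FPKM against 0.852 ± 0.0293 FPKM (0.51 log2, limma adjusted p = 0.00664, lost without control replicate 2). The caldesmon gene CALD1 (-0.32 log2) and ANXA6 (-0.29 log2) were lower, CALD1 not under scaling to the total, while the sign of ANXA6 turned in another scaling. The fibrillin gene FBN1 was called higher (0.23 log2), but not without either control. JUP read 12.6 FPKM (0.77 log2, limma adjusted p = 0.00014) and CTNNB1 36.1 FPKM (-0.62 log2, limma adjusted p = 6.47e-05, lost under scaling to the total), LSR rose by 0.39 log2, a call lost without control replicate 2, and the desmoglein gene DSG2 by 0.30 log2.

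Between the deprivations 9 of 17 other mesenchymal genes were higher without glutamine and 1 was lower (median 0.27, beside 0.01 for all genes), and 2 of 13 epithelial genes were higher and 1 lower (median 0.04), against 22.6% higher and 22.1% lower among all genes. FSCN1 read 37.3 FPKM without glutamine and 20.7 ± 2.85 FPKM without glucose (SD, n = 2; 0.83 log2, limma adjusted p = 0.000731), MMP2 differed by 0.79 log2 and FN1 by 0.68 log2, whereas EMP3 differed by -0.55 log2, a call lost without glucose deprivation replicate 2. Of the epithelial genes F11R differed by 0.63 log2 and the catenin CTNND1 (0.19 log2) and occludin (OCLN, -0.20 log2) by less, with both of these calls lost whichever library was left out. VIM lay on the side of EMP3 in this comparison, although the EMP3 call was also lost under scaling to the total and without the filter. That of FSCN1 was lost without the filter as well. Over both lists 13 genes were called, and 8 when any one control or glucose-deprived library was left out.

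**Figure D4:**
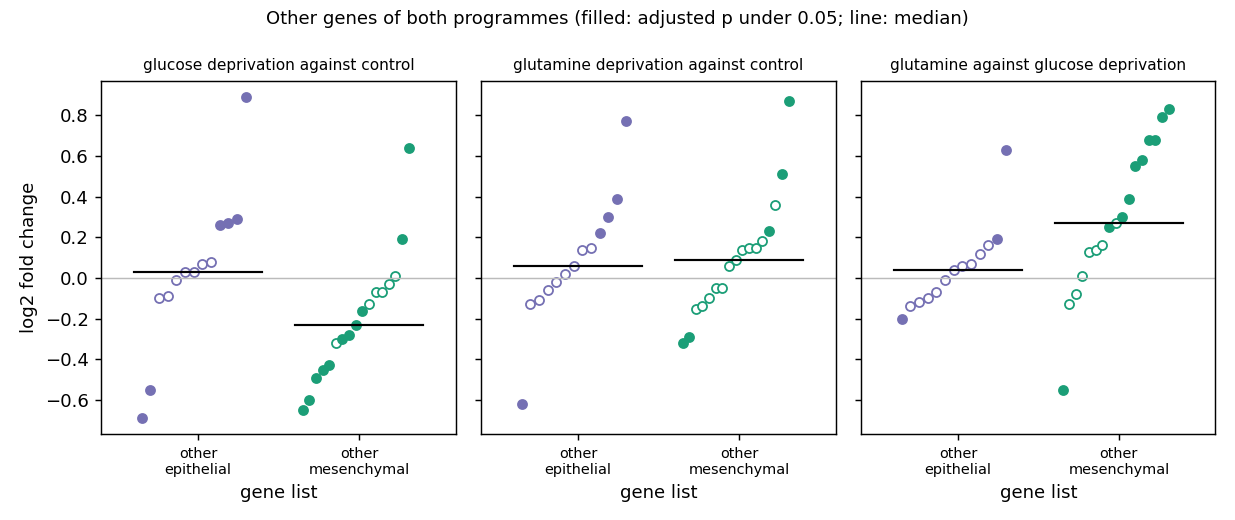
Log2 fold change of each other epithelial gene (13 tested, purple) and other mesenchymal gene (17 tested, green) in the 3 comparisons, with the list median as a line and filled points past an adjusted p of 0.05 (limma). Mesenchymal genes lie around a median of -0.23 without glucose and of 0.27 between the deprivations.

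TGF-beta, a secreted factor that drives epithelial-mesenchymal transition through SMAD proteins, was covered by 14 genes, of which 13 were tested. Without glucose 4 rose and 4 fell (median -0.06, which was positive under scaling to the total and upper-quartile scaling, at 0.04 and 0.02), near the 26.6% and 28.3% of all genes. The pathway's own inhibitors SMAD7, from 5.71 ± 0.19 to 2.92 ± 0.00424 FPKM (SD, n = 2; -0.77 log2, limma adjusted p = 2.13e-05), and SKIL (-0.46 log2) fell, as did the co-receptor TGFBR3 (-0.41 log2, not under scaling to the total), while the transducers SMAD2 (0.42 log2), SMAD3 (0.32 log2) and SMAD4 (0.32 log2) rose. Without glutamine 6 rose and 1 fell (median 0.19), against 24.8% and 26.4% of all genes, led by SMAD3 at 4.84 FPKM against 2.27 ± 0.0263 FPKM (0.84 log2, limma adjusted p = 4e-05), the latent factor binding gene LTBP1 (0.44 log2) and the ligand TGFB1 (0.43 log2). The receptor TGFBR1 was the one that fell (-0.21 log2), and its sign turned in another scaling. The count of rises was 2 without control replicate 1 or control replicate 2, and TGFB1 was not called in either. Between the deprivations 7 were higher without glutamine and 4 lower (median 0.44), against 22.6% and 22.1% of all genes; LTBP1 (0.82 log2), SMAD7 (0.77 log2) and SKIL (0.67 log2) were higher and SMAD4 (-0.35 log2), SMAD2 (-0.23 log2) and SMURF2 (-0.22 log2), a ubiquitin ligase, lower. Under scaling to the total none of these 3 lower calls held, and that of SMURF2 was also lost without control replicate 1, control replicate 2 or glucose deprivation replicate 1.

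Among 19 other keratins and partners of intermediate filaments, 6 were tested. Without glucose 4 fell, where 28.3% of all genes did, with KRT10 at -0.61 log2, the lamin A gene LMNA at -0.48 log2 and the lamin B1 gene LMNB1 at -0.29 log2 leading; KRT10 was not called without control replicate 1 or glucose deprivation replicate 1, nor LMNB1 under scaling to the total. Without glutamine PLEC, the plectin that links filaments to each other and to junctions, read 10.2 FPKM against 4.73 ± 0.231 FPKM in control (SD, n = 2; 0.96 log2, limma adjusted p = 3.15e-05), and NES, the filament gene nestin, rose by 0.48 log2. KRT10 (-0.49 log2) and LMNB1 (-0.27 log2) were lower there. KRT10 was not called without either control, nor LMNB1 without control replicate 2, and the sign of LMNB1 turned in another scaling. Between the deprivations PLEC (0.84 log2), NES (0.72 log2) and LMNA (0.54 log2) were higher without glutamine.

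The genes whose levels over the 5 libraries lay nearest to those of a member were sought among 4472 genes averaging 10 FPKM or more, by the root mean square difference of log2 levels centred on control. For VIM these were JMJD8 (difference 0.0475), which went from 17.8 FPKM in control to 32.3 FPKM without glucose and 19.9 FPKM without glutamine, IFRD1 (0.0623) and the non-coding RNA SNHG7 (0.0641). For KRT18 they were SLC25A39 (0.0313), SQSTM1 (0.0335) and OTUB1 (0.0383), and for CDH2 SPECC1L (0.0155), MAP4K4 (0.0157) and AC245060.7 (0.0178). These are descriptions over 5 libraries.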

How the data were processed

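Per the labels' protocols, total RNA of 95D cells was depleted of ribosomal RNA and read in pairs of 150 bases. HISAT2 2.0.5 and StringTie on hg38 are named in the submitters' processing notes; for annotation and strand this detail is not given in the sources used here. No header names a unit, and from the values themselves the deposited columns were read as FPKM made by the authors. Of 6 value columns 1, in the glutamine table, carries the name of glucose deprivation replicate 2; it could not be mapped and was not used.

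FPKM were divided by TMM-type factors (reference the mean of all libraries; trim at each end 30% by ratio and 5% by level; genes averaging 1 FPKM or more). Depth was inferred from 4015 to 4418 single-exon genes per library, of whose values 94.9% to 95.6% fell within 0.05 of whole reads; exon lengths came from GENCODE release 29 for 56586 of 59609 names and were the median length for the rest. limma 3.58.1 in R 4.3.3 was fitted to log2(FPKM + 1) of genes that reached 1 FPKM in any library, with a coefficient per group and a variance trend over inferred reads, Benjamini-Hochberg adjustment over 16600 genes, two-sided, threshold 0.05. The fit was also run on simulated data with few changed genes and no shift in scaling. These data differ on both points, so that run does not tell how many calls here are false.

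The members, lists and tests were chosen with earlier results of these data known. All 10 members are given; from each further list at most 3 rises and 3 falls per comparison were named, and the 2 highest control levels. Alternatives were the pseudocount, filter, scaling, variance trend, replicate block and leaving out each library. For genes of the further lists, not every setting that lost a call is named. Of lists, the corepressors stand under other observations. A few single genes of these lists are not reported here.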

Additional observations from a re-analysis of the deposited data

How the results depend on the processing

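Of 280 values of single members under alternatives, 215 kept their direction and their side of the threshold, 31 lost their call, 14 gained one and 20 turned in sign, none of a member called in that comparison as reported. Of the 7 tested genes, the 5 called without glucose were 3 of 9 tested without the filter, 2 under scaling to the total and 3 with the variance trend over FPKM, and 2 to 5 with a library left out. The 2 called without glutamine were 0 without the filter and 0 with the trend over FPKM (limma; 3 and 2 at an unadjusted p under 0.05), 4 with upper-quartile scaling, 4 with unscaled values, and 0 to 3 with a library left out. The 2 between the deprivations were 0 under scaling to the total (limma; 1 at an unadjusted p under 0.05). Of the other epithelial and mesenchymal genes, the 17 called without glucose were 11 without the filter and 10 under scaling to the total, the 10 without glutamine were 16 with upper-quartile scaling, and the 13 between the deprivations were 8 with any one library left out that allowed the fit. The log2 ratio of VIM to KRT18 was 1.85 in control, 3.03 without glucose and 2.33 without glutamine, and 1.57, 2.48 and 1.74 with pseudogenes added. The causes of these shifts were not tested.

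Signs that turned, all of uncalled values, were as follows in log2. Under scaling to the total SNAI2 was 0.03 without glucose, 0.12 without glutamine and 0.09 between the deprivations, ZEB1 0.16 without glutamine, and KRT8 0.17 and KRT18 0.15 between the deprivations. With upper-quartile scaling SNAI2 was 0.01 without glucose, ZEB1 0.04 without glutamine, and KRT8 0.07 and KRT18 0.03 between the deprivations. With unscaled values ZEB1 was 0.03 without glutamine, and KRT8 0.10, KRT18 0.07 and SNAI2 0.01 between the deprivations. With a library left out KRT8 ranged from -0.08 to 0.07 and KRT18 from -0.17 to 0.08 in that comparison, positive without glucose deprivation replicate 2, and they were 0.14 and 0.00032 with pseudogenes added. With a replicate block they were 0.0027 and 0.003, and the block left 5, 2 and 2 members called in the 3 comparisons. The labels give replicates a shared number only, and deviations of same-numbered control and glucose-deprived libraries correlated across genes with r = -0.0218, so the libraries were not treated as paired. CDH1 and EPCAM rested on 4.14 to 57.6 inferred reads, which limits their precision, and KRT19 was listed at 0.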

Other observations

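The partners through which ZEB and SNAI factors act, and enzymes that set their stability, formed a further list of 12 genes, all tested. Without glucose 6 rose and 4 fell (median 0.07, beside 0.03 for all genes; 26.6% of all genes rose and 28.3% fell). The corepressor CTBP2 went from 8.03 ± 0.0871 to 10.7 ± 0.0447 FPKM (SD, n = 2; 0.38 log2, limma adjusted p = 0.000144), while its paralogue CTBP1 fell from 14.7 ± 0.143 to 11.7 ± 0.141 FPKM (-0.31 log2, limma adjusted p = 0.000403). The deacetylase gene HDAC1 fell from 78.9 ± 1.47 to 50 ± 1.31 FPKM (-0.65 log2, limma adjusted p = 1.51e-05) and the demethylase gene KDM1A by 0.31 on the log2 scale; CTBP1 and KDM1A were not called under scaling to the total. FBXL14, a ubiquitin ligase subunit, rose by 0.34 log2 and the deacetylase gene SIRT1 by 0.23 log2. Neither held without control replicate 1, and the count of rises was 1 without that library and 3 without control replicate 2.

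Without glutamine 2 of the 12 rose and 4 fell (median 0.02, beside 0.05 for all genes, of which 24.8% rose and 26.4% fell). HDAC1 read 60.7 FPKM (-0.37 log2, limma adjusted p = 0.000603), HDAC2 13.5 FPKM against 17.7 ± 0.0727 FPKM in control (SD, n = 2; -0.36 log2) and KDM1A 37.8 FPKM against 48.5 ± 0.882 FPKM (-0.35 log2); under scaling to the total none of these 3 was called. GSK3B, a kinase, rose by 0.34 log2. Without glutamine CTBP2 read 8.2 FPKM and CTBP1 14.6 FPKM. Between the deprivations CTBP2 differed by -0.35 log2 (limma adjusted p = 0.000958; not called under scaling to the total) and CTBP1 by 0.30 log2 (limma adjusted p = 0.00187).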
